A study of Mus musculus with 3 samples.

Results

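The 10 genes described here are 9 genes of the circadian clock, namely Clock, Arntl, Per1, Per2, Cry1, Nr1d1, Nr1d2, Bhlhe40 and Dbp, together with Nfil3. They were taken by symbol from a table of 14293 genes, and all 10 were present. RNA was sequenced from 3 sublines of B16, a melanoma line from the C57BL/6J mouse strain, named F0, F1 and F10, with 1 library each. All grew untreated in the same high-glucose medium with 8% serum and were collected as subconfluent monolayers within 10 passages of thawing. By their published history, F1 and F10 come from tumour cells selected in mice for lung colonisation, F10 over more rounds, and F0 is the unselected line. No genotype, synchronising treatment or hour of harvest is given in the sources used here. With 1 library a subline there is no test and no replicate error, and a difference may come from the subline, the culture, the moment of harvest or the library. The melanoma label was checked against 10 melanocyte genes, among them Mlana, Tyr and Mitf, which read from 37.9 to 3030 RPKM over the 3 libraries.

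The circadian clock is a transcription loop that runs in most cell types, skin cells included. CLOCK and BMAL1, the product of Arntl, bind E-boxes and switch on the Per and Cry genes, whose proteins then silence CLOCK and BMAL1. A linked loop sets the REV-ERB repressors (Nr1d1 and Nr1d2) against the ROR activators at RORE sites, as in the Arntl promoter. The activator DBP and the repressor NFIL3 compete for D-box sites, which occur in Per genes. In cultured cells that have not been synchronised, the phases of single cells differ, so that a bulk measurement averages over them.

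Promoter windows of 300 bases (250 before the start site, 50 from it on) were available for 8 of the 10 genes, from RefSeq on GRCm38.p6. Windows of Nfil3, the gene that differed most between sublines, and of genes that hold the sites read by the loop are shown 5′ to 3′. Capitals mark E-boxes (CACGTG), D-boxes (TTATGTAA, TTACGTAA or TTATGCAA) and ROREs, an 11-letter word with 1 free position that can be read in capitals in the Arntl window, searched on both strands. No 2 of these words overlapped in the windows shown. Per3 is outside the 10 genes and is shown for its D-boxes.
Nfil3, chr13:52980990-52981289, minus strand: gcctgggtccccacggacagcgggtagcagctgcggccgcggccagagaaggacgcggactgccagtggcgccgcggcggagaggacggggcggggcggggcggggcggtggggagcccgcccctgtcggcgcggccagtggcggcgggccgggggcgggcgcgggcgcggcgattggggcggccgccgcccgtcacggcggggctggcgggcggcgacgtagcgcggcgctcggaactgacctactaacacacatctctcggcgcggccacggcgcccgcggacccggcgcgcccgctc
Per1, chr11:69098699-69098998, plus strand: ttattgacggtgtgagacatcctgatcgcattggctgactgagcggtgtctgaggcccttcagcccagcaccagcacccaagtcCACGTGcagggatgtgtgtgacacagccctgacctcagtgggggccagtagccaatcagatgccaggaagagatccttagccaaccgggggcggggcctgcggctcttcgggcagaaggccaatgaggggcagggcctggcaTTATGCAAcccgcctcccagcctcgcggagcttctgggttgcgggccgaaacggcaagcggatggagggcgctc
Cry1, chr10:85185005-85185304, minus strand: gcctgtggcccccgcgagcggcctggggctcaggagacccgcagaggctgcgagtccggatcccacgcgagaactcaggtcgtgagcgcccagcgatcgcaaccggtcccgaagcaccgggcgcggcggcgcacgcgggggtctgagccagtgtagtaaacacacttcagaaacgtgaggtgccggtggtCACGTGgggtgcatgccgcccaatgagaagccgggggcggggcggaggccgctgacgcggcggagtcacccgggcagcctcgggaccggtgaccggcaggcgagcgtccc
Arntl, chr7:113207261-113207560, plus strand: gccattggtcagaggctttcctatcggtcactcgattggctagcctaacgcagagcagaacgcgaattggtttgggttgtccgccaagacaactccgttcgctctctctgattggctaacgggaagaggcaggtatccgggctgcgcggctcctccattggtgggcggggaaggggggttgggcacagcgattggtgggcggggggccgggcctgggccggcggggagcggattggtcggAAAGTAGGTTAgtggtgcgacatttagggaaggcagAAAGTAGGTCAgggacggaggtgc
Per3, chr4:151044616-151044915, minus strand: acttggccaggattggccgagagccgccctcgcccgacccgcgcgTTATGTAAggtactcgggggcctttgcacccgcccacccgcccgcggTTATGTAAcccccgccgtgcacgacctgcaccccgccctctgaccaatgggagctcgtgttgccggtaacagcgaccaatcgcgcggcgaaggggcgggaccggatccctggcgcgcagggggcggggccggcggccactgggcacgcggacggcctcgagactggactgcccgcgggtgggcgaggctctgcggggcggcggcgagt
The Per1 window shown held 1 E-box, 166 bases before its start site, and 1 D-box. Cry1 held 1 E-box, 60 bases before its start, and the Arntl window held 2 ROREs around its start. Per3 held 2 D-boxes. Per1 and Arntl each had another window that is not shown. That of Per1 held none of these words. That of Arntl overlaps the window shown, and the 1 RORE it held is the first of those marked there. The Nfil3 window held none of these letters. Of all 32851 promoter windows, 7.15% held the E-box, 1.78% a D-box and 0.0609% the RORE. A match describes the letters and does not show that a factor binds.

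The unit of level is RPKM, which divides a gene's reads by transcript length and by the reads of its library, so levels of different genes can be set side by side. Fragments behind each value were estimated from the table, with 5.45, 6.32 and 5.39 fragments for each kilobase at 1 RPKM (F0, F1, F10). The 95% intervals come from these estimates and cover counting error only. The clock genes were expressed at low levels: the median of the 10 was 3.8, 4.27 and 3.92 RPKM in the F0, F1 and F10 libraries, where the median compared gene read 10.2, 10.3 and 10.1. Bhlhe40 stood highest in F0 and F10, with intervals clear of the next gene, and Nfil3 stood highest in F1, clear of Bhlhe40. Nr1d2 and Clock came next to each other in every library, with overlapping intervals. Cry1, Arntl and Per1 stood lower, below Nfil3 in all 3 libraries, and overlapped one another in the order. In F1 the highest of these, Cry1, did not overlap Clock above it. In every library the last 3 places were held by Nr1d1, Dbp and Per2.

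**Figure D1:**
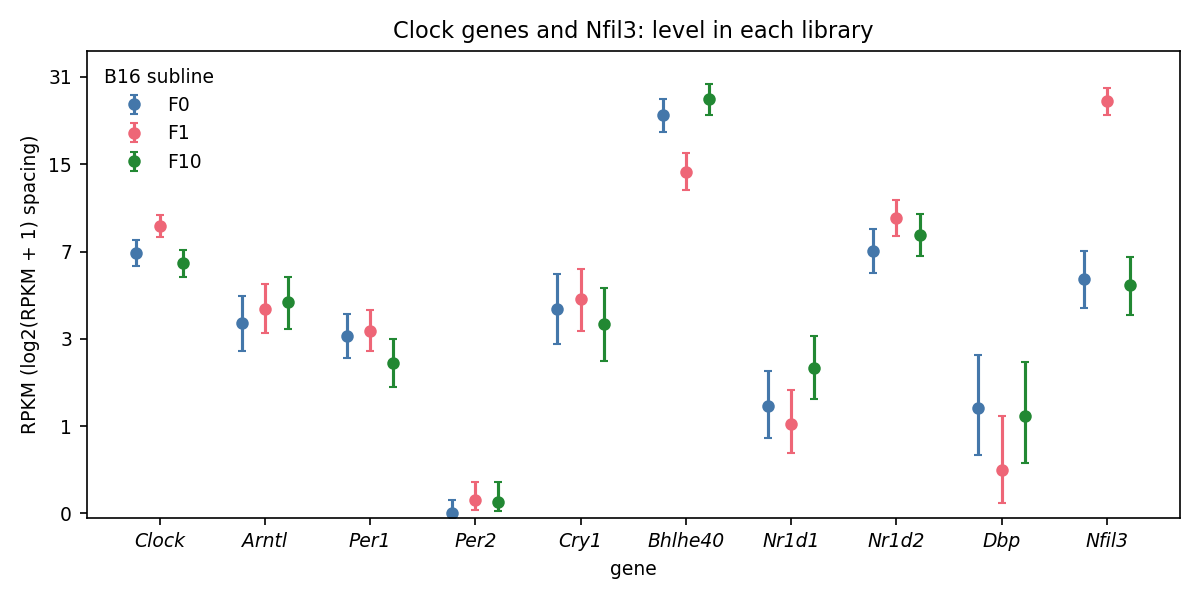
Level of each gene in the F0, F1 and F10 libraries, in RPKM on an axis spaced as log2(RPKM + 1); points are the single library values and bars the 95% counting intervals. Nfil3 stands at 25.4 RPKM in F1 against 5.43 in F0 and 5.11 in F10, and Bhlhe40 is lowest in F1.

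Genes reaching 1 RPKM in at least 1 library were compared (10701 genes, 9 of the 10 members among them, without Per2), as differences of log2(RPKM + 1). On this scale the fold of a low gene is understated. On the log2(RPKM + 1) scale Nfil3 was the single member at least 2-fold apart between F1 and F0, on the higher side. Of all compared genes 1.99% were at least 2-fold apart, 0.972% higher and 1.02% lower. For F10 against F1 Nfil3 was again the single member, on the lower side, against 3.98% of genes apart, 2.07% higher and 1.92% lower. As plain RPKM ratios, Dbp (0.311 for F1 to F0 and 2.86 for F10 to F1) and Nr1d1 (2.09 for F10 to F1) were also past 2-fold. The counting intervals of Dbp include 1, and that of Nr1d1 does not (1.13 to 3.98). For F10 against F0 no member was 2-fold apart, where 3.15% of genes were (1.54% higher and 1.61% lower). The F1 library enters both comparisons in which Nfil3 differed, so these are not independent. Below 0 lay 3 of the 9 members in F1 against F0 (50.8% of all compared genes), 5 in F10 against F0 (51%) and 5 in F10 against F1 (51.1%), which for 9 genes is near the background. The members' median difference was 0.11 (F1 against F0), -0.07 (F10 against F0) and -0.19 (F10 against F1), and the median of all compared genes was -0.01 in each.

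Nfil3, also called E4BP4, is a basic leucine zipper repressor of D-box genes that is also needed for natural killer cell development in mice. It lies at chr13:52967209-52981073 on the minus strand (GRCm38, GENCODE M21). Its level was 5.43 (F0), 25.4 (F1) and 5.11 (F10) RPKM, on about 59, 319 and 55 fragments. F1 thus stood apart from both other libraries, which lay within each other's counting intervals. The F1 to F0 ratio was 4.68 (3.54 to 6.3), a log2 difference of 2.04 that ranked 9 from the top among the 10701 compared genes. The F1 to F10 ratio was 4.98 (3.73 to 6.76), and the F10 to F0 ratio was 0.941 (0.639 to 1.38). In the authors' deposited table, Nfil3 had a score of 3.6 in F1 and -0.0988 in F10, both relative to F0.

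Among 10150 named genes, the 3 whose differences from F0 in F1 and in F10 were nearest to those of Nfil3 were Gadd45a, Vldlr and Ppp1r15a. The measure was the Euclidean distance over these 2 log2 differences, so it rests on 3 libraries. Gadd45a, a stress-inducible growth arrest gene, read 11.3, 45.1 and 10.3 RPKM in F0, F1 and F10 (distance 0.139). Vldlr, a lipoprotein receptor, read 0.93, 5.32 and 0.824 (distance 0.328). Ppp1r15a, a phosphatase subunit that restores translation after stress, read 16.7, 95.9 and 14.5 (distance 0.43). All 3 belong to the list of 20 integrated stress response genes, which was chosen with earlier results of these data known. Of these 20, 9 were at least 2-fold higher in F1 than in F0 and none lower. Among all compared genes 0.972% were higher and 1.02% lower. The median difference of the list was 0.91. Within that list the largest differences were those of Ppp1r15a, Atf3 (12.6 and 60.9 RPKM) and Nupr1 (26.8 and 104). In F10 against F0 the same list had 2 members at least 2-fold lower, none higher and a median of -0.11. Among all compared genes 1.61% were lower and 1.54% higher. Whether the stress response had a part in the Nfil3 level was not tested.

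**Figure D2:**
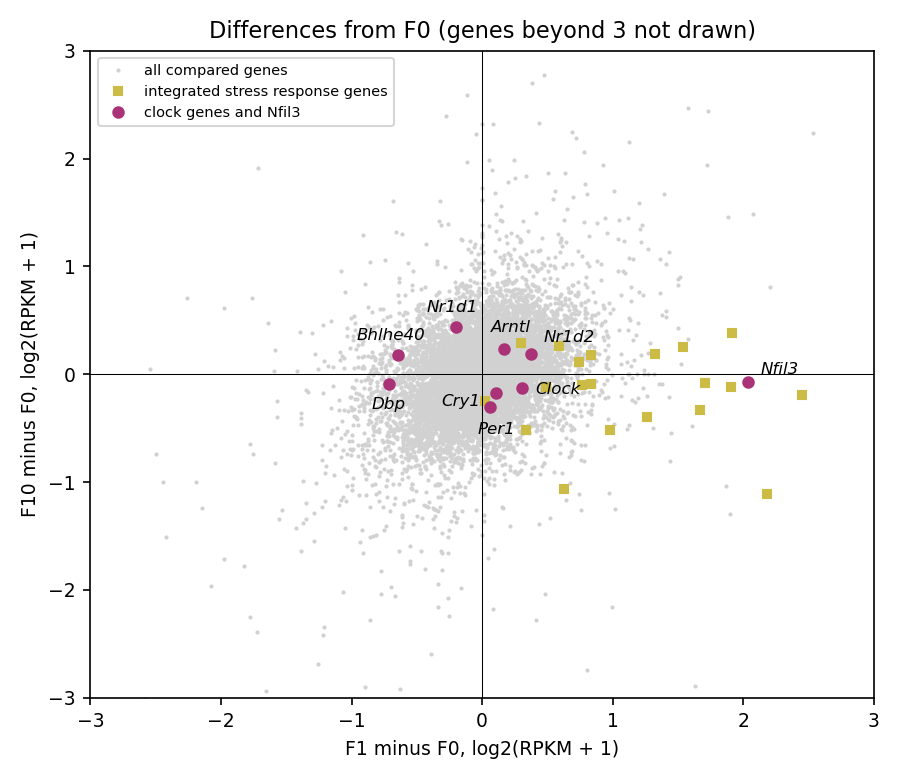
Difference of F1 from F0 (horizontal) and of F10 from F0 (vertical), both in log2(RPKM + 1), for all compared genes (grey), 20 integrated stress response genes (squares) and the 9 compared members (circles, named). Both axes share the F0 library. Nfil3 lies at 2.04 and -0.07, among stress response genes, and the other members lie between -0.72 and 0.38 on the horizontal axis.

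Dbp encodes an activator of D-box genes and is one of the most strongly cycling transcripts of mouse liver. It read 1.31 (F0), 0.409 (F1) and 1.17 (F10) RPKM, on about 9, 3 and 8 fragments. F1 was thus lowest, at the floor of 3 fragments. The F1 to F0 ratio of 0.311 had a counting interval of 0.0563 to 1.24, which includes 1, and the F10 to F0 ratio of 0.891 had one of 0.291 to 2.66. The difference of -0.72 for F1 against F0 became -1.47 with a pseudocount of 0.1, past 2-fold. With the longest transcript as length, the interval excluded 1. The last 737 bases of Dbp overlap Sphk2 on the opposite strand (3.51, 4.01 and 4.5 RPKM), and the strand setting of the authors' counting is not given in the sources used here, so that reads of either gene may have been credited to the other.

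The level of Nfil3 relative to Dbp, the repressor and the activator of the same sites, was 4.13 (2.01 to 9.64) in F0, 62.2 (21.5 to 290) in F1 and 4.37 (2.04 to 10.9) in F10. The interval in F1 did not meet those of F0 and F10. Tef, another D-box activator of the same family, read 9.36, 8.2 and 13.7 RPKM and was the most abundant of the D-box activators in each library. Nfil3 stood below Tef in F0, at a ratio of 0.58 (0.416 to 0.801), and in F10, at 0.372 (0.269 to 0.508). In F1 it stood above Tef, at 3.1 (2.5 to 3.87). Hlf, the remaining activator of the family, read 0.198, 0.368 and 0.0998 RPKM, on 7 fragments or fewer.

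Clock and Arntl encode the activator pair at E-boxes. Clock read 6.94 (F0), 8.83 (F1) and 6.28 (F10) RPKM, on about 281, 415 and 252 fragments. It was highest in F1, with an F1 to F0 ratio of 1.27 (1.09 to 1.49) and an F1 to F10 ratio of 1.41 (1.2 to 1.65). Arntl read 3.53, 4.08 and 4.34 RPKM, and its ratios, from 1.06 to 1.23, all had intervals that include 1. Clock is overlapped on its own strand by Gm43658 over 4176 bases and the pseudogene Ube2n-ps1 over 459, and Arntl on the opposite strand by Gm45355 over 2394, so their levels may hold reads of these. Clock exceeded Arntl in each library, by 1.97 times (1.46 to 2.7) in F0, 2.16 (1.68 to 2.83) in F1 and 1.45 (1.09 to 1.94) in F10. Of their paralogs, Npas2, which can stand in for Clock, was listed at 0 in F0 and F10 and read 0.0384 RPKM in F1. Arntl2 read 0.287, 0.801 and 1.01 RPKM on 9 fragments or fewer, and its F10 to F0 ratio of 3.51 (0.833 to 23.1) did not exclude 1.

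Per1, Per2 and Cry1 encode repressors of CLOCK and BMAL1. Per1 read 3.09 (F0), 3.27 (F1) and 2.31 (F10) RPKM, on about 76, 93 and 56 fragments. F10 was lowest, at a ratio to F1 of 0.706 (0.497 to 0.994) and to F0 of 0.747 (0.519 to 1.07). Per2 was listed at 0 in F0 and read 0.11 RPKM in F1 and 0.0969 in F10, on about 4 and 3 fragments. A count of 3 fragments would be 0.095 RPKM for this transcript in F0, so no difference was detectable at this depth and no fold is given. Cry1 read 4.08, 4.47 and 3.5 RPKM, and every pair of libraries had a ratio whose interval includes 1. Per3 read 0.155, 0.24 and 0.503 RPKM, on about 5, 9 and 16 fragments, with an F10 to F0 ratio of 3.23 (1.14 to 11.2). Cry2 read 1.35, 2.48 and 2.5 RPKM, higher than F0 in F1 by a ratio of 1.84 (1.09 to 3.19) and in F10 by 1.85 (1.08 to 3.25). The Cry1 to Cry2 ratio was 3.02 (1.72 to 5.39) in F0, 1.8 (1.17 to 2.77) in F1 and 1.4 (0.842 to 2.31) in F10.

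Bhlhe40, also called DEC1, is an E-box repressor that responds to serum, hypoxia and other signals as well as to the clock. It read 22.6 (F0), 14.1 (F1) and 25.8 (F10) RPKM, on about 217, 157 and 244 fragments. F1 was lowest, opposite to Nfil3, with an F1 to F0 ratio of 0.623 (0.504 to 0.769) and an F10 to F1 ratio of 1.83 (1.49 to 2.25). The antisense gene 0610040F04Rik overlaps 306 bases of Bhlhe40. The Bhlhe40 difference of 0.83 for F10 against F1 lay short of 2-fold and ranked 388 from the top among compared genes. F10 and F0 differed by a ratio of 1.14 (0.945 to 1.37). Bhlhe41, the other DEC gene, read 28.4, 25.8 and 33.1 RPKM, and its ratio to Bhlhe40 was 1.25 (1.07 to 1.48) in F0, 1.83 (1.53 to 2.2) in F1 and 1.28 (1.1 to 1.49) in F10.

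Nr1d1 and Nr1d2 encode REV-ERB alpha and beta, haem-binding nuclear receptors that repress Arntl. Nr1d1 read 1.35 (F0), 1.04 (F1) and 2.18 (F10) RPKM, on about 20, 18 and 32 fragments. F10 was highest, at 2.09 times F1 (1.13 to 3.98), while its ratio to F0 of 1.62 (0.893 to 3) included 1. The 3′ end of Nr1d1 overlaps Thra on the opposite strand over 1075 bases (4.9, 5.07 and 4.62 RPKM), which leaves its value uncertain in the same way as that of Dbp. Nr1d2 read 7.03, 9.43 and 8.12 RPKM, and its F1 to F0 ratio was 1.34 (1.04 to 1.74). Nr1d2 exceeded Nr1d1 by 5.21 times (3.2 to 8.93) in F0, 9.04 (5.52 to 15.7) in F1 and 3.72 (2.49 to 5.71) in F10. On the activating side of this loop, Rora read 2.38, 2.75 and 1.98 RPKM, and its F10 to F1 ratio of 0.72 (0.529 to 0.975) had an interval that excluded 1. Rorb read 0.0848 RPKM in F0 and was listed at 0 in F1 and F10.

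**Figure D3:**
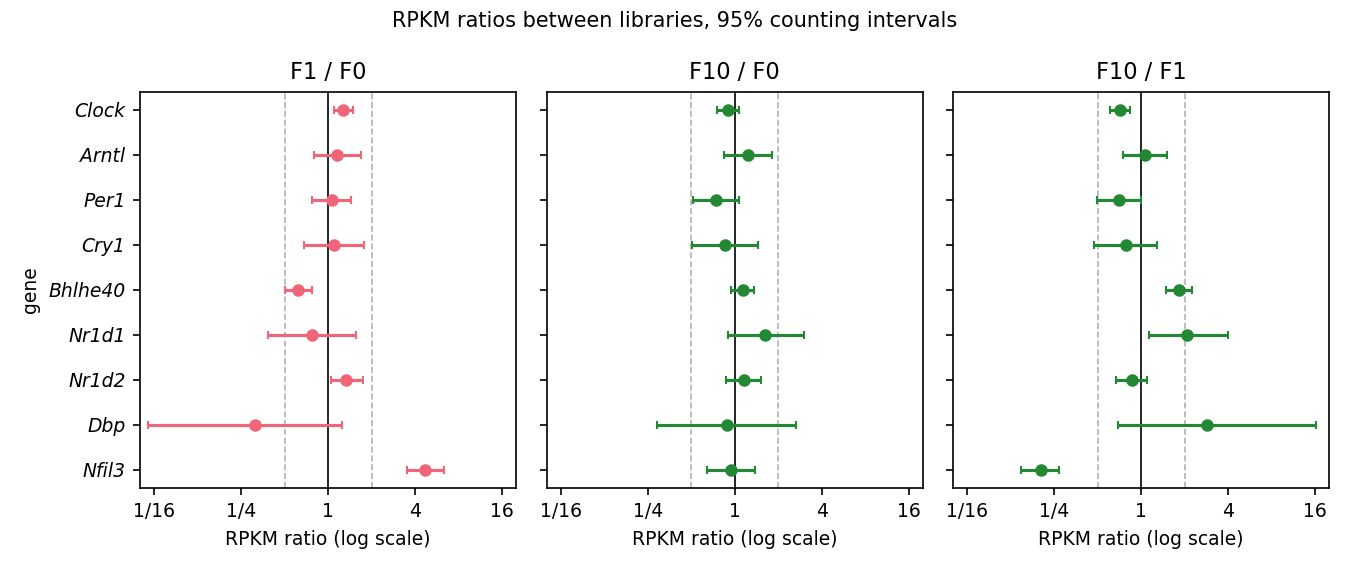
RPKM ratio of F1 to F0, F10 to F0 and F10 to F1 on a log axis for the 9 compared members, with 95% counting intervals; dashed lines mark 2-fold. Intervals exclude 1 for 4 members in F1 against F0, for none in F10 against F0 and for 5 in F10 against F1. The share of all compared genes with such an interval was not computed.

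Counting intervals excluded 1 for 4 members in F1 against F0: Nfil3, Clock and Nr1d2 were higher in F1 and Bhlhe40 was lower. In F10 against F1 they did so for 5: Nfil3, Clock and Per1 were lower in F10, and Bhlhe40 and Nr1d1 were higher. None did in F10 against F0. The share of all compared genes with an interval clear of 1 was not computed, so these counts have no background and describe nothing particular to clock genes. The intervals hold no spread between cultures, so an interval clear of 1 compares 2 libraries and not 2 sublines. The base composition of transcripts moved with the libraries: by eighths of GC content, the median difference of F10 from F1 ran from -0.17 in the lowest to 0.26 in the highest. Clock has a transcript GC content of 41.7%, Nr1d1 56.8%, Per1 59.1% and Dbp 59.7%. After subtraction of the median difference of genes of like GC content (20 bins), F10 against F1 gave -0.26 for Clock in place of -0.43, 0.51 for Nr1d1 in place of 0.64, -0.64 for Per1 in place of -0.37 and 0.35 for Dbp in place of 0.62. Nfil3, at 54.5% GC, gave -2.19 in place of -2.11.

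The list of other core clock factors had 13 genes, 8 of them compared. None was at least 2-fold apart in any pair on the log2(RPKM + 1) scale, against the shares of all genes given above. As plain RPKM ratios to F0, Arntl2 was past 2-fold in F1 (2.79, 0.648 to 18.6) and in F10 (3.51, 0.833 to 23.1), with intervals that include 1. The median difference of the list was -0.11 (F1 against F0), 0.27 (F10 against F0) and 0.32 (F10 against F1). Above 0 lay 7 of the 8 in each F10 comparison, where 49% and 48.8% of all compared genes did. Besides Tef, at an F10 to F0 ratio of 1.47 (1.15 to 1.88), Timeless, which in mammals acts mainly at replication forks, read 10.1, 8.82 and 13 RPKM. Its partner Tipin read 62.8, 59.3 and 72.5. Ciart, a repressor of CLOCK and BMAL1, read 0.134, 0.345 and 0.405 RPKM on about 1 fragment or fewer. The sum of 8 fibroblast markers was also highest in F10 (5.41, 4.86 and 13.3 RPKM), as was that of 15 skeletal muscle genes (20.2, 23.3 and 81.9 RPKM), chosen with their F10 values known. Of the 12 muscle genes compared, 11 were at least 2-fold higher in F10 than in F0 and 12 than in F1. Among all compared genes 1.54% were higher than in F0 and 2.07% than in F1. Ckm, muscle creatine kinase, read 0.527, 1.47 and 6.26 RPKM. The muscle regulator Myod1 was listed at 0 in F0 and F1 and read 0.102 RPKM in F10, on about 1 fragment. The part of these markers in the F10 values, those of Nr1d1, Bhlhe40, Per1 and Tef included, was not tested. Sums over the leukocyte markers in the table (4 of 8) were 3.33, 3.45 and 3.05 RPKM, with Ptprc at 0 in F0 and F10, and the 5 endothelial markers summed to at most 1.14. Of 5 keratinocyte markers 1 was in the table, and the keratins Krt5, Krt14, Krt10 and Krt1 were not found by symbol. The one present, Epcam, a marker of simple epithelia, read 0.181 RPKM in F0 and 0 elsewhere.

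Of 23 compared kinases, phosphatases and ubiquitin enzymes that set the activity or decay of clock proteins, none was at least 2-fold apart in any pair on the log2(RPKM + 1) scale. Among all compared genes 1.99% (F1 against F0), 3.15% (F10 against F0) and 3.98% (F10 against F1) were, so none among 23 is near the background. In the same order the list medians were 0.16, 0.04 and -0.09. The largest F1 differences were those of Usp2, a ubiquitin protease under clock control, and Siah2, a ubiquitin ligase. Usp2 read 3.83, 1.65 and 3.4 RPKM, with an F1 to F0 ratio of 0.431 (0.244 to 0.74), past 2-fold as a plain RPKM ratio and a difference of -0.87 on that scale. Siah2 read 7.27, 12.1 and 9.01 RPKM, with a ratio of 1.66 (1.29 to 2.14). Of 18 cofactors none was 2-fold apart either, which against the same shares is also near the background. The largest F1 differences were those of Rbm4 (9.33, 6.08 and 7.67 RPKM) and Hdac3, the deacetylase recruited by the REV-ERBs (29.6, 23.6 and 23.5).

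On the log2(RPKM + 1) scale, 1 of 19 compared clock-controlled output genes was at least 2-fold lower in F10 than in F0. None was 2-fold apart in the other pairs. Among all compared genes 1.61% were at least 2-fold lower in F10 than in F0. In F1 against F0 1.99% were apart, and in F10 against F1 3.98%. Medians of the list were 0 (F1 against F0), -0.07 (F10 against F0) and -0.1 (F10 against F1). The gene lower in F10 was Hsd17b1, a steroid dehydrogenase, at 1.84, 1.22 and 0.143 RPKM, the last on about 1 fragment. Its F10 to F0 ratio was 0.0777 (0.00184 to 0.517). Its F10 to F1 ratio of 0.118 (0.00273 to 0.825) was also past 2-fold as a plain RPKM ratio. Signals that reach clock genes from outside the loop were read from 3 lists. On the log2(RPKM + 1) scale, immediate early genes had 1 of 20 at least 2-fold higher in F1 than in F0, Jun (5.62 and 13.7 RPKM), and none lower. Among all compared genes 0.972% were higher and 1.02% lower. As plain F1 to F0 ratios, Fos (0.246, 0.059 to 0.781) and Junb (0.143, 0.0149 to 0.656) were past 2-fold on the lower side, on 14 fragments or fewer. In F10 the one gene at least 2-fold higher on that scale, than F0 and than F1, was Egr1, a serum-induced zinc finger factor. It read 0.182, 0.157 and 1.41 RPKM, with an F10 to F0 ratio of 7.75 (2.63 to 32.5). Among all compared genes 1.54% were higher than in F0 and 2.07% than in F1. As plain F10 to F1 ratios, Nr4a1 (2.15, 1.65 to 2.82), Fos (2.94, 0.849 to 12.8) and Junb (4.7, 0.919 to 47.4) were also past 2-fold on the higher side. Junb (1.22 and 0.174, about 2 fragments in F1) and Klf6 (21.1 and 38.8) had the next largest F1 against F0 differences after Jun. Glucocorticoid-responsive genes, a list that includes Per1, had none of 11 at least 2-fold apart on the log2(RPKM + 1) scale in any pair. Among all compared genes 1.99% (F1 against F0), 3.15% (F10 against F0) and 3.98% (F10 against F1) were. The list had an F1 against F0 median of 0.06, with Klf9 at 1.94 and 3.69, Dusp1 at 2.59 and 4.54 and Mt1 at 416 and 272. As a plain ratio of F10 to F1, Dusp1 was past 2-fold at 0.492 (0.282 to 0.83). Hypoxia-responsive genes had 1 of 20 at least 2-fold higher in F1 than in F0, Adm (3.38 and 9.29), where 0.972% of all compared genes were. Their F1 against F0 median was 0.13, with Vegfa at 13.5 and 25 and Mxi1 at 6.32 and 10.5. Counts of 0 or 1 in lists of this size are too small to set apart from these shares.

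**Figure D4:**
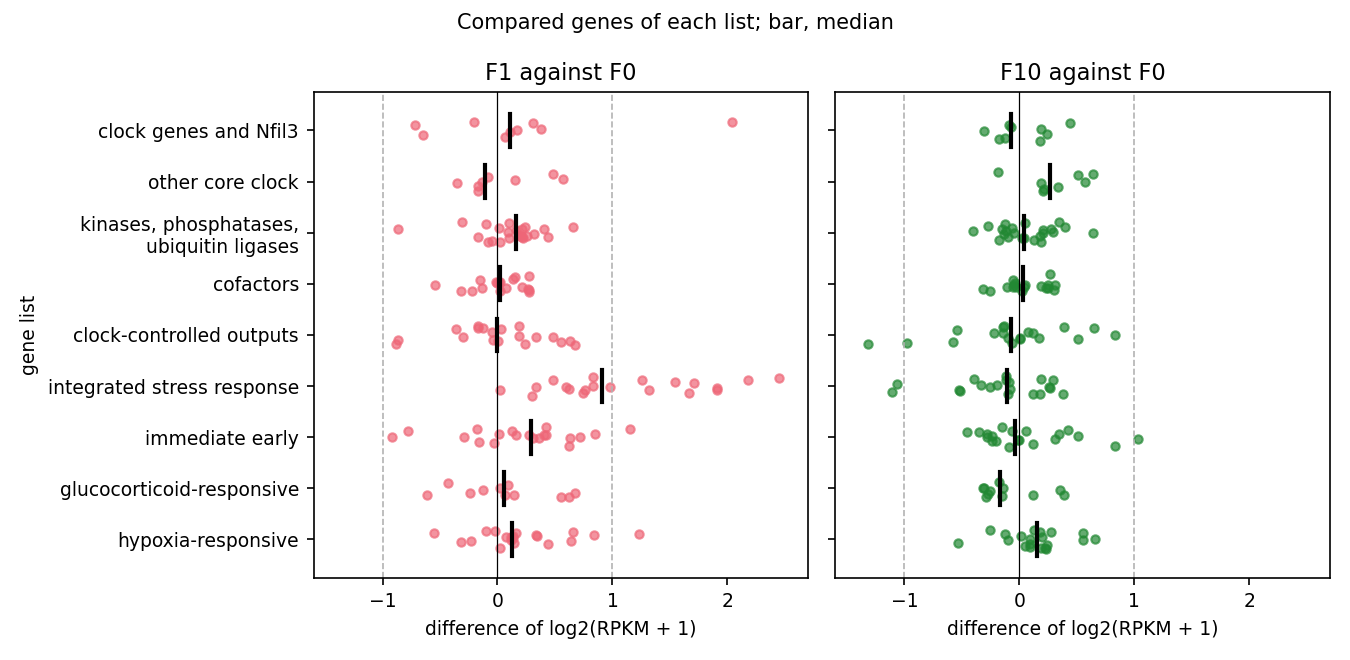
Differences of log2(RPKM + 1) for the compared genes of 9 lists, F1 against F0 on the left and F10 against F0 on the right; each point is a gene, black bars are list medians and dashed lines mark 2-fold. Among the clock lists Nfil3 alone passes 2-fold in F1, and the stress response list has a median of 0.91 in F1 and -0.11 in F10.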

How the data were processed

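Polyadenylated RNA was made into stranded libraries, per the labels' protocols. Per the submitters' processing notes, the tools were bcl2fastq, TopHat, Bowtie2 and Cufflinks and the build was mm10; the sources used here give no version, setting or annotation. The authors deposited 1 RPKM value per gene and library, and a score of each RPKM difference from F0, per the file headers. For the members that score equals, within rounding, that difference over the square root of both RPKM values summed. A date stood in place of the symbol in 20 of 14313 rows (0.174% of RPKM), and these were left out.

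Differences of log2(RPKM + 1) were taken over genes of at least 1 RPKM in at least 1 library. Fragments were estimated from the lowest RPKM step of 1392 single-transcript genes of at least 800 bases (length less 40 bases, GENCODE M21, median protein-coding transcript; 99.1% of genes had a length). Ratio intervals are 95% Clopper-Pearson and level intervals exact Poisson (scipy 1.17.1). Both are approximate, and the floor is 3 fragments. The fold call, ratio and interval steps were tested on simulated data, and the estimate of fragments was not. The members and lists were chosen with earlier results of these data known. All 10 members and the other core clock genes are named, except 1 of the latter that is not reported here; enzyme, cofactor and output lists give genes at least 2-fold apart in any pair or otherwise the 2 with the largest F1 against F0 difference, and stress, early, glucocorticoid and hypoxia lists the 3 with the largest. The 3 genes nearest to a member at least 2-fold apart are also named. Promoter motifs were chosen after the values were seen.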

Additional observations from a re-analysis of the deposited data

How the results depend on the processing

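The settings tried were a pseudocount of 0.1 or 0.5, the filter dropped or raised to 5 RPKM, equal library sums (TPM scale), median ratio scaling, subtraction of GC bin medians, folds of 1.5 and 4, means, and the longest transcript. Nfil3 was counted as 2-fold apart in F1 against F0 and in F10 against F1 under each setting that was run on single members (all but means and the longest transcript), with differences from 2.04 to 2.21 and from -2.29 to -2.08. No member's difference changed sign in any of 174 alternative values, but the pseudocount and filter settings cannot change a sign. Only the values on the TPM scale, with median ratio scaling and with GC bin medians subtracted could have done so. The number of members apart rose from 1 to 2 with a pseudocount of 0.1 in both of those pairs, through Dbp. At 1.5-fold it was 3 in F1 against F0 (Nfil3, Dbp and Bhlhe40) and 4 in F10 against F1 (those and Nr1d1). Other core clock genes apart went from 0 to 1 at a pseudocount of 0.1 in F1 against F0 and F10 against F0 (Arntl2), and at 1.5-fold to 1 in F10 against F0 (Arntl2) and 1 in F10 against F1 (Tef). The members' median for F10 against F0 turned from -0.07 to 0.03 without the filter, 0.05 at 5 RPKM and 0.03 as a mean. At 5 RPKM, with 4 members left, the median was 0.34 (F1 against F0) and -0.31 (F10 against F1). Subtraction of GC bin medians gave -0.07 for F10 against F1. Medians were held to be unchanged within 0.1 and counts within 1.5 times. With the longest transcript as length, 5 members in place of 4 had an interval that excluded 1 in F1 against F0, Dbp being added. Depth limits Per2, Dbp and Nr1d1, on 32 fragments or fewer in each library. No paired analysis was possible because each subline has 1 library.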

Other observations

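The promoter words were also read across all compared genes that had a promoter window (8258 genes), as a description with no test and with words chosen after the values were seen. Genes with a D-box word in a window numbered 117. Their median difference was 0 for F1 against F0, and 1 was at least 2-fold higher (0.855%) and 3 lower (2.56%), where 0.969% and 0.981% of all genes with a window were. For F10 against F0 none was higher and 6 were lower (5.13%, against 1.47% of all). For F10 against F1 none was higher and 7 were lower (5.98%, against 1.9% of all). The F10 library enters both of these pairs, so they are not independent. Any link of the D-box counts to the Nfil3 level was not tested. Genes with an E-box word numbered 1005, with a median of -0.01 for F1 against F0, 7 at least 2-fold higher and 6 lower. A further word, TGATGNAA, the composite site of C/EBP and ATF proteins that many amino acid stress genes hold, was present in 3.97% of windows and in 210 compared genes. Of these, 11 were at least 2-fold higher in F1 than in F0 (5.24%) and 1 was lower (0.476%). In F10, 8 were at least 2-fold lower than in F0 (3.81%) and 15 than in F1 (7.14%), with 2 higher in each pair (0.952%). The Nfil3 window did not hold that word, which says nothing of sites elsewhere in the gene.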
